A study of Mus musculus with 46 samples.

Results

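The inserts described here are 20 control sequences placed downstream of a reporter gene, each read against the reporter plasmid that carried the promoter and no insert. Of these, 15 are shuffled sequences, 3 for each of 5 candidate cis-regulatory elements (cCREs) of the mouse Klf2 locus, and 5 are named as random. They were chosen as the inserts of the Downstream assay whose name starts with RRandom or contains shuffled, in plasmids with a promoter. Both orientations with 10 promoters would give 400 constructs, and 361 were measured, 268 shuffled and 93 random, of 2364 constructs in the Downstream table. The other 39 combinations are not analysed here. All constructs were read in the same 3 samples, biological replicates of E14TG2a mouse embryonic stem cells, an established cell line grown in 2i+LIF medium. In each replicate the cells received the whole Downstream plasmid mix by nucleofection, and reporter RNA was collected after 24 h. The activity of a construct is the ratio of its barcodes in complementary DNA (cDNA) to those in plasmid DNA, given by the authors for each replicate on a linear scale. The activity of the promoter alone is the column that names only the promoter fragment in the same table. No group of cells was left untreated, and the plasmid with the promoter alone serves as the control of each comparison.

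In a massively parallel reporter assay each plasmid carries a short barcode in its transcript, so that the RNA output of many constructs can be counted in one pool of cells. An enhancer can raise transcription from a promoter when placed beyond the reporter and in either orientation, and a silencer can lower it. Shuffling an element keeps its bases but not the order in which transcription factors read them, and shuffled or random DNA is commonly used to set the level from which a boost is read. Comparing them with the promoter alone asks whether adding such DNA leaves the promoter where it was.

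The 10 promoters are fragments of chromosome 8, given with coordinates 450 bp apart, and the submitters' processing notes name mm10. Fragments are listed with the orientation +, and what it is relative to is not given in the sources used here. P001 holds a boundary of Zfp882, a zinc finger gene, P009 of Rab8a, a small GTPase of vesicle traffic, P013 of Fam32a, P014 of Ap1m1, a subunit of a clathrin adaptor complex, and P016 of Klf2, a Krüppel-like transcription factor of the pluripotency network. P017 holds a boundary of Eps15l1, an endocytic adaptor, P018 of both Calr3 and 1700030K09Rik, P019 of Cherp, P021 of Med26, a Mediator subunit, and P022 of both Smim7 and Tmem38a. The upstream bases of 3 promoters are shown, chosen by their values. The median control difference was larger with Rab8a than with most other promoters, and smaller with Eps15l1 than with most. Shuffled and random inserts lay furthest apart with Klf2. Each run is the 250 bases before the RefSeq start on GRCm38.p6, 5′ to 3′ on the gene's strand. These are chr8:72160950-72161199 (+ strand), chr8:72421475-72421724 (- strand) and chr8:72318812-72319061 (+ strand), all inside the cloned fragments P009, P017 and P016. Capitals mark GGGCGG or its reverse complement CCGCCC, a GC box.
Rab8a: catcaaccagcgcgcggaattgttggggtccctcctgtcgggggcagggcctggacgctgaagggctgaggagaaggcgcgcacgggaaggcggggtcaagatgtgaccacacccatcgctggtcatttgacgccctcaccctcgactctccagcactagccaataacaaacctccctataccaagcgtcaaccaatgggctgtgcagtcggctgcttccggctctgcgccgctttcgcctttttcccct
Eps15l1: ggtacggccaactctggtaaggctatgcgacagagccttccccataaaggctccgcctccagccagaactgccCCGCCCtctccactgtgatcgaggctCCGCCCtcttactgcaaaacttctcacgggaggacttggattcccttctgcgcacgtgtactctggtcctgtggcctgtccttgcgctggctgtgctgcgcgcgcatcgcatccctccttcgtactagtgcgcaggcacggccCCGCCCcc
Klf2: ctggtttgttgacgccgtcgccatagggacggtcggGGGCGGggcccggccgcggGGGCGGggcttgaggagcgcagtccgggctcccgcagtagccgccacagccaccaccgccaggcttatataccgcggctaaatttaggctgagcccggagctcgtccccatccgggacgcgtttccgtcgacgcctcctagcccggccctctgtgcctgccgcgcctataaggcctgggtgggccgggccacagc
The GC content of these windows was 61.6%, 63.2% and 71.2%, and the GC box occurred 0, 3 and 2 times. Among the other promoters the windows of P001, P013 and P018 held 0, those of P019 and P021 held 1 each, and that of P022 held 3. Only 246 of the 250 bases of the P022 window lie inside the cloned fragment, whose end cuts its first GC box. No window was matched to P014. A relation of these counts to the median control difference was not tested. Of 32851 RefSeq promoter windows of this length, 32.7% held it. A match of letters is not a bound site.

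With no insert, the activities of the promoters covered an 11.8-fold range. The vector of P022 was the most active, at 4.09, 3.97 and 4.37 in replicates 1, 2 and 3, followed by P021 at 2.58, 2.59 and 2.52. P001 was the least active, at 0.299, 0.368 and 0.394, and P019 came next at 0.341, 0.450 and 0.377. The Klf2 promoter P016 varied most between replicates, with 0.815, 1.37 and 1.11, a highest over lowest value of 1.68. Its constructs with control inserts moved with it, at a median activity of 0.559, 0.979 and 0.820. Each difference was therefore taken within a replicate.

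Most constructs with a control insert were less active than the promoter alone. The median log2 difference to the promoter alone over the 361 constructs was -0.54, -0.58 and -0.48 in replicates 1, 2 and 3, and -0.53 over their means, a 1.44-fold lower activity. In limma, which took 1 common error for all constructs, 265 of the 361 constructs (73.4%) fell below the promoter alone at a Benjamini-Hochberg adjusted p of 0.05, where 61.6% of all 2145 constructs with a promoter did. A further 66 (18.3%) rose above it, against 20.7% of all constructs, and 30 passed in neither direction, where 82.3% of all constructs passed in one direction or the other. The median over all 2145 constructs was -0.28. In 222 control constructs (61.5%) all 3 activities lay below all 3 of the promoter alone, against 46.9% of all constructs. In 54 (15.0%) all lay above, which is near the 14.7% of all constructs. All inserts of a promoter share its 1 vector, so an error in that vector would move all of them together and the constructs are not independent. The controls of each promoter come from a sub-library of their own. The column of the promoter alone does not name the sub-library it was read from. A difference between sub-libraries was therefore not separated from an effect of the insert. The replicates also received the same mix of cloned plasmids, so their spread holds nothing of how separately cloned plasmids would vary. The labels list 2 plasmid DNA samples for the 3 cDNA samples, and the column names do not tell how these enter the ratios. The depth of the plasmid mix is unknown, since no barcode numbers were used.

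The size of the drop differed between promoters. The median over control inserts lay below the promoter alone with all 10 promoters, and in each of the 3 replicates. With all measured constructs it was lowest for P001, the Zfp882 promoter, at -1.03 ± 0.081 (SD, n = 3), a 2.04-fold lower activity. Only 10 control constructs were measured with P001 and all 10 fell, where 68.4% of its 133 cCRE constructs did. Only E46-shuffled1 was measured in both orientations with P001, and the median over its constructs there was -0.76. Over all inserts measured in both orientations, P009 had -0.91 and P021 -0.81. P001 did not come first in that comparison, but its value there rests on a single insert. The 10 constructs had a median activity of 0.142, 0.174 and 0.206 in replicates 1, 2 and 3. These values lie near those of the vector without promoter or insert, at 0.102, 0.194 and 0.155. With the Rab8a promoter P009 the vector had 1.25, 1.24 and 1.07, and the median control construct 0.639, 0.605 and 0.629. These groups did not overlap, and the median difference was -0.92 ± 0.14 (SD, n = 3), with 31 of 39 constructs lower and 3 higher. Among cCRE constructs with P009, 69.7% were lower and 13.9% higher.

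Control constructs also lay lower with the promoters that had the most active vectors. With P021, at Med26, the median difference was -0.83 ± 0.041 (SD, n = 3), and 28 of 32 constructs fell while 4 rose. With P022, at Smim7 and Tmem38a, it was -0.74 ± 0.037, with 36 of 40 lower and 3 higher. The median control construct reached 2.47, 2.31 and 2.66 there, below every value of its vector. P018, at Calr3 and 1700030K09Rik, followed with -0.61 ± 0.089, and 29 of 40 lower against 6 higher. The shares of cCRE constructs called lower were 64.5% with P021, 68.3% with P022 and 65.1% with P018. Those called higher were 16.9%, 11.1% and 14.1%.

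Intermediate values were found for 3 promoters. P016 at Klf2 had -0.49 ± 0.054 (SD, n = 3), with 29 of 40 constructs lower and 7 higher. Without matching by replicate, 18 of these were lower and 5 higher, with the replicates of the vector as far apart as given above. P013 at Fam32a had -0.44 ± 0.027, with 28 lower and 7 higher, and 22 and 3 without matching. P019 at Cherp had -0.42 ± 0.079, with 30 lower and 7 higher, and its mean over constructs was -0.20. These 3 medians were not tested against each other. In the matched fit, cCRE constructs were called lower in 66.4% with P016, 55.5% with P013 and 41.9% with P019. They were called higher in 18.6%, 22.6% and 30.4%.

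With the promoters of Eps15l1 and Ap1m1 control constructs lay on both sides of the promoter alone, and their medians lay nearest to it. P017 had a median difference of -0.23 ± 0.066 (SD, n = 3), with 24 of 40 constructs lower and 15 higher, and a mean of -0.071. Its vector had 1.62, 1.71 and 1.47, and the median control construct 1.37, 1.40 and 1.32. P014 had -0.14 ± 0.025, a 1.11-fold lower activity, and a mean of -0.079, with 20 lower, 14 higher and 6 passing in neither direction. For cCRE constructs the shares were 52.9% lower and 22.2% higher with P017, and 51.2% and 28.5% with P014. The median control construct with P014 had 1.17, 1.11 and 0.985, which overlapped its vector at 1.29, 1.25 and 1.07. The interquartile ranges over inserts were 1.22 with P017 and 1.05 with P014, the widest among the 10 promoters, and single constructs ran from -1.15 to 1.28 with P017 and from -1.34 to 2.68 with P014. Across the 10 promoters Pearson's r between the median difference and the log2 activity of the vector was 0.031 and Spearman's rho 0.055, a description in which the vector enters both values.

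The same promoters were read with 84 cCREs in 1364 constructs. The median cCRE construct lay at -0.25 to the promoter alone, a 1.19-fold lower activity, and 60.0% of cCRE constructs fell while 19.5% rose. The median control lay below the median cCRE with 9 of 10 promoters. Averaged over promoters the difference was -0.37, -0.29 and -0.31 in replicates 1, 2 and 3, with a mean of -0.32 ± 0.043 (SD, n = 3). An exact two-sided sign-flip permutation test gave p = 0.25, the smallest that 3 replicates allow. By promoter the difference ran from -0.73 with P001 and -0.48 with P009 to -0.067 with P017 and 0.017 with P014. Across the 10 promoters r between the cCRE and control medians was 0.78 and rho 0.87, a description of values that share the vector. Each promoter's controls come from 1 sub-library of their own, prepared apart from that promoter's cCREs, so insert class and sub-library cannot be told apart. The promoter vector cancels in this difference.

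Larger differences to the promoter alone were also counted in both classes. A drop of at least 2-fold that passed the test was seen in 74 of 361 control constructs (20.5%) and in 7.62% of cCRE constructs. A rise of at least 2-fold that passed was seen in 21 control constructs (5.82%) and in 1.25% of cCRE constructs. The 10th and 90th percentiles were -1.20 and 0.64 for control constructs, and -0.89 and 0.34 for cCRE constructs. The interquartile range was wider for controls than for cCREs with 7 of 10 promoters, with 1.22 against 0.52 for P017, and was narrower for P022, with 0.39 against 0.50. Between replicates, the difference to the promoter alone had a median SD of 0.094 for control and 0.089 for cCRE constructs. That difference holds the spread of the shared vector. Between orientations, where the vector cancels, the median SD was 0.11 for control pairs and 0.057 for cCRE pairs. These shares and widths were not tested against each other.

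Averaged over promoters and orientations, 18 of the 20 inserts lay below the promoter alone and 2 above it. The inserts were measured with 8 to 10 promoters, so their means rest on unlike sets of promoters. The lowest was RRandom3 at -0.88 ± 0.067 (SD, n = 3) over 19 constructs, of which 16 fell and 2 rose. RRandom1 followed at -0.82 ± 0.056, with 15 of 18 constructs lower. E95-shuffled1 had -0.76 ± 0.011, with 16 of 17 lower and 1 higher. Over promoters measured in both orientations RRandom1 had -0.76 and E95-shuffled1 -0.74. At the other end, E46-shuffled2 had 0.24 ± 0.078, and 9 of its 18 constructs rose while 8 fell. E46-shuffled3 had 0.099 ± 0.056, although 12 of its 18 constructs fell and 4 rose. E27-shuffled3 had -0.0051 ± 0.067, with 8 of 16 lower and 5 higher. For both of these the median construct was lower than the mean, at -0.24 and -0.23, and the highest construct of each reached 2.24 and 1.82. The means of the other 14 inserts ran from -0.69 for E95-shuffled3 to -0.074 for RRandom5. RRandom2, at -0.19 ± 0.086, held both directions, with 11 constructs lower and 7 higher, from -1.19 with P021 to 1.23 with P009. RRandom4 had -0.55 ± 0.061, with 13 of 19 lower and 3 higher. E6-shuffled1 had -0.52 ± 0.078 and ran from -2.01 to 2.68, the widest range of any control insert. It was measured with 9 promoters in the + and 7 in the - orientation. Over promoters measured in both orientations its mean was -0.36, against -0.53 for RRandom4. E6-shuffled3 had -0.31 ± 0.064, with 13 of 19 lower and 5 higher, the highest being 1.50 with P014. The median construct was lower than the mean for E6-shuffled3 at -0.67, for RRandom2 at -0.32, for RRandom5 at -0.15 and for E46-shuffled2 at 0.14. Of the 19 steps between neighbours in this order, 10 were smaller than the larger of both SDs.

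Some inserts in 1 orientation lay below the promoter alone with every promoter they were measured with, and none lay above it with every promoter. Of the 40 oriented inserts, 4 fell with each of their promoters. The same count for cCREs is not given here, and 61.6% of all constructs with a promoter fell, so it is not read as particular to controls. RRandom3 in the - orientation fell with all 10, from -1.54 with P001 to -0.94 with P019, with a mean of -1.24 ± 0.081 (SD, n = 3). With the Klf2 promoter its activity was 0.296, 0.540 and 0.429, below all values of the vector, and with P014 it was 0.586, 0.492 and 0.484. E46-shuffled1 in the + orientation fell with all 10, from -1.58 with P009 to -0.200 with P017. E6-shuffled2 in the + orientation and E95-shuffled1 in the - orientation each fell with all 9 promoters measured. RRandom3 in the - orientation was also the 1 of these that lay below the other controls with all its promoters. That test set each construct against the median over control inserts with the same promoter, with its own insert left out.

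Against the other controls, 291 of the 361 control constructs differed in limma (80.6%), where 83.6% of all 2145 constructs did. Of the control constructs, 145 (40.2%) were lower and 146 (40.4%) higher, against 22.1% and 61.5% of all constructs. The near-even split of controls is set by the comparison itself, since the median is taken over controls. RRandom5 in the - orientation was higher than the other controls with all 10 promoters and lower with 0, although its mean to the promoter alone was 0.0082 ± 0.098 (SD, n = 3). E46-shuffled2 in the - orientation was higher than the others with all 9 of its promoters. E46-shuffled2, E46-shuffled3 and RRandom5 had no construct below the other controls in either orientation, and 16, 13 and 16 above.

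Shuffling the same element did not give the same level. The 3 shuffled forms of E46 ran from -0.53 ± 0.073 (SD, n = 3) for E46-shuffled1 to the 0.24 of E46-shuffled2, a range of 0.77. Those of E27 ran from -0.60 to -0.0051, a range of 0.59. Those of E30, E6 and E95 lay within 0.21, 0.22 and 0.23 of each other. The means over 3 shuffled forms were -0.082 ± 0.058 for E46, -0.35 ± 0.020 for E27, -0.39 ± 0.060 for E30, -0.45 ± 0.042 for E6 and -0.66 ± 0.013 for E95. Each mean rests on 3 sequences, and the means of the elements were not tested against each other. The elements themselves, matched by number, did not follow this order. E006 (chromosome 8, 71900631 to 71901081) and E046 (72271221 to 72271671) had means of 0.53 ± 0.10 and 0.37 ± 0.095 to the promoter alone, and E030 (72125819 to 72126269) had -1.38 ± 0.12. E027 (72105226 to 72105676) and E095 (72664782 to 72665232) had -0.20 ± 0.060 and -0.20 ± 0.063.

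Shuffled and random inserts were compared as classes. The median random construct lay at -0.68 and the median shuffled construct at -0.51. Taken per promoter and averaged over the 10, shuffled minus random was 0.068, 0.055 and 0.074 in replicates 1, 2 and 3, with a mean of 0.066 ± 0.0097 (SD, n = 3; exact two-sided sign-flip permutation p = 0.25, the smallest possible). It was above 0 with 7 promoters and below 0 with 3. With the Klf2 promoter it was -0.68 ± 0.031, where random inserts had a median of 0.045 and shuffled inserts -0.63, and with P017 it was 0.37 ± 0.018. The class difference was 0.148 without the Klf2 promoter, 0.032 without P017, 0.043 without P013 and 0.019 over the combinations of promoter and orientation in which every control insert was measured.

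The lowest constructs came mostly with the Rab8a promoter. E6-shuffled1 in the + orientation with P009 had activities of 0.302, 0.290 and 0.293, against 1.25, 1.24 and 1.07 for the vector. This was a 4.02-fold drop, or -2.01 ± 0.12 on the log2 scale (SD, n = 3), and all 3 values lay below the vector. RRandom1 in the + orientation with P009 followed at 0.423, 0.374 and 0.331, with a difference of -1.66 ± 0.084. E95-shuffled1 in the - orientation and E46-shuffled1 in the + orientation had -1.62 ± 0.14 and -1.58 ± 0.13 with the same promoter. E95-shuffled2 in the + orientation with P018 had 0.408, 0.376 and 0.474 against 1.22, 1.29 and 1.40, a difference of -1.64 ± 0.12. In the limma fit without matching by replicate, adjusted p for these 5 constructs was 2.90e-05 or lower.

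The highest constructs came with several promoters, and E27-shuffled3 in the + orientation was among them with both P022 and P019. E6-shuffled1 in the - orientation with P014, at Ap1m1, had 8.11, 7.26 and 7.75 against 1.29, 1.25 and 1.07 for the vector. This was 6.41-fold higher, or 2.68 ± 0.16 on the log2 scale (SD, n = 3), with no overlap. The same insert in the + orientation with P014 had 0.555, 0.575 and 0.471, below the vector. E46-shuffled3 in the + orientation with P019 had 1.86, 1.91 and 1.72 against 0.341, 0.450 and 0.377, a difference of 2.24 ± 0.19. E27-shuffled3 in the + orientation rose with P022, to 14.9, 13.6 and 15.5 against 4.09, 3.97 and 4.37, and with P019, to 1.12, 1.45 and 1.23. These differences were 1.82 ± 0.043 and 1.70 ± 0.011. E27-shuffled1 in the + orientation with P021 had 8.39, 10.1 and 8.52 against 2.58, 2.59 and 2.52, a difference of 1.81 ± 0.14. All 5 high constructs carry shuffled inserts, as do 268 of the 361 control constructs. In limma without matching by replicate, their adjusted p was 2.23e-05 or lower.

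No insert was the lowest or the highest with all promoters, but some recurred. RRandom3 in the - orientation was lowest with P001, P016 and P019, and E27-shuffled1 in the - orientation with P013, P014 and P021. E46-shuffled3 in the + orientation was highest with P009 and P019. Further ends are given for the promoters not yet described, a choice made after the values were seen. With P013, at Fam32a, E27-shuffled1 in the - orientation was lowest, at 0.482, 0.420 and 0.327, a difference of -1.48 ± 0.095 (SD, n = 3). E30-shuffled1 in the - orientation was highest there, at 2.36, 1.93 and 1.77, a difference of 0.83 ± 0.073. With the Klf2 promoter, E46-shuffled3 in the - orientation was highest, at 2.38, 3.88 and 3.06 against 0.815, 1.37 and 1.11 for the vector, a difference of 1.50 ± 0.041. With P017, at Eps15l1, both ends were shuffled forms of E95 in the + orientation. E95-shuffled1 had 0.717, 0.795 and 0.651, a difference of -1.15 ± 0.039, and E95-shuffled3 had 3.94, 4.21 and 3.51, a difference of 1.28 ± 0.021. With P018, at Calr3 and 1700030K09Rik, E6-shuffled1 in the + orientation was highest, at 2.47, 2.59 and 3.07, a difference of 1.05 ± 0.071. The same oriented insert was lowest with P022, at 1.32, 1.37 and 1.59, a difference of -1.54 ± 0.088, and lowest with P009. With P001 no control insert rose, and the highest was E46-shuffled1 in the - orientation, at 0.219, 0.307 and 0.343, which overlapped the vector. Apart from that construct, the activities printed in this paragraph for each end lay wholly outside those of the vector.

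High values were also set against what the insert and the promoter gave elsewhere. With the medians of each promoter and of each oriented insert removed in turn, 36 of 361 control constructs (9.97%) remained more than 1 log2 unit above 0 and 0 remained more than 1 below. The same treatment of the 1321 cCRE constructs measured in 1 orientation with at least 5 promoters left 11 above (0.833%) and 0 below. The cutoff was chosen after the values had been seen, and the difference in share was not tested. The 36 constructs came from 16 inserts and 9 promoters, with 6 each for P009, P016 and P019 and at most 3 in any oriented insert. In 4 of the 36 the other orientation of the same insert with the same promoter was high as well, and in 28 it lay within 0.5 of 0. The 3 replicates of each construct share its plasmids, so repeated transfection does not show whether another cloning of the same construct would be high.

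Orientations of control inserts differed about as often as those of all inserts. In 175 combinations of insert and promoter measured both ways, 141 differed between orientations in limma (80.6%), 80 with the + and 61 with the - orientation lower, against 79.5% of all 982 such pairs in the table. The median size was 0.44 on the log2 scale, a 1.35-fold difference, and its 90th percentile was 1.61. For 72 cCREs in 612 pairs these values were 0.28 and 0.82, a difference in size that was not tested. The median SD between replicates was also larger for control pairs, at 0.11 against 0.057 for cCRE pairs.

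For a few inserts the orientations differed the same way with nearly every promoter. E46-shuffled1 was lower in the + orientation with all 10, by -0.77 ± 0.068 on average (SD, n = 3) and from -1.51 to -0.37. With P009 its + orientation had 0.396, 0.392 and 0.397 and its - orientation 0.889, 0.888 and 0.805, so the groups did not overlap. RRandom3 was higher in the + orientation with all 9, by 0.73 ± 0.033 and from 0.11 to 2.28. E6-shuffled2 was lower in the + orientation with 8 of 9 promoters, by -0.79 ± 0.048, and RRandom2 with 8 of 9, by -0.79 ± 0.080. Other inserts turned with the promoter. E27-shuffled1 differed with all 9, with the + orientation higher in 7 and lower in 2, from -1.40 to 3.34.

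The largest orientation differences were those of the high constructs. E6-shuffled1 with P014 had a difference of + to - of -3.86 ± 0.19 (SD, n = 3; limma adjusted p = 4.05e-05). E27-shuffled1 with P021 had 3.34 ± 0.18, with 0.864, 0.868 and 0.928 in the - orientation. E46-shuffled3 had 2.39 ± 0.19 with P019 and 2.37 ± 0.29 with P009, where the + orientation reached 3.87, 3.16 and 2.74 and the - orientation 0.613, 0.605 and 0.649. E27-shuffled3 with P022 had 2.32 ± 0.071, with 2.83, 2.76 and 3.25 in the - orientation. In each of these pairs the orientations did not overlap.

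Much of the variation among control constructs was not taken up by promoter, insert and orientation added together. In an additive description of the 361 differences, the promoter took 11.9% of the sum of squares, the insert 15.5% and its orientation 10.9%, which left 61.8%. For the cCRE constructs the insert took 58.5%, its orientation 13.8% and the promoter 4.37%, which left 23.3%. The mean square of the rest was 0.386 for controls and 0.0677 for cCREs, which is 67.1 and 16.5 times the error variance of a construct's mean. That error comes from replicates that received the same cloned plasmids. Variation between cloned plasmids would therefore fall into the rest and was not separated from combinations of insert and promoter. Across 36 pairs of promoters other than P001, Spearman's rho between the differences of the same oriented inserts had a median of 0.33 and ran from -0.12 to 0.68, over 32 to 40 oriented inserts. These are descriptions, and the pairs share inserts. Replicates agreed over control constructs at r = 0.97 to 0.98.

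In the vector without promoter, 39 control constructs had a median difference to the empty vector of -0.82 ± 0.14 (SD, n = 3), and the median of 137 cCRE constructs lay at -0.017. The empty vector itself had activities of 0.102, 0.194 and 0.155.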

How the data were processed

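The authors deposited one table of activities for the Downstream assay, in which each construct has a ratio of cDNA to plasmid barcodes in each of 3 biological replicates, with plasmid DNA as input per the labels' protocols. The submitters' processing notes name Bowtie2 and mm10 without a role. Barcode filters, scaling and read depth are not given in the sources used here, so no counting interval could be computed, and the 3 replicates limit the precision. Upstream tables were not used.

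Log2 of the ratio of a construct minus log2 of the ratio of its promoter alone was taken within each replicate. No value was 0, so no pseudocount was added. Construct and vector were read in the same 3 samples, and this pairing makes the replicate a block by construction. The differences were tested against 0 with limma 3.58.1 in R 4.3.3, two-sided, with Benjamini-Hochberg adjustment over all 2145 constructs with a promoter. limma's prior for this test was infinite and gave every construct 1 standard error of 0.0654, so its p-values are used for calls at 0.05 and not printed. Constructs against the other controls, and + against - orientations, were tested likewise. Summaries used Python 3.11.15, pandas 2.3.3, numpy 2.4.6 and scipy 1.17.1. The limma tests were also run on simulated data, with noise drawn independently for each row. That simulation does not hold the error shared by constructs of the same promoter, so it cannot show how the tests behave under it.

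Constructs named are the 5 highest and 5 lowest past the threshold with 1 sign in all 3 replicates, the 5 largest orientation differences, and the 3 highest and 3 lowest inserts measured with at least 5 promoters; others served as examples of a count. Members, lists and rules were chosen with earlier results of these data known. Promoter sequences are from RefSeq (GRCm38.p6), which matched 9 of 10 promoters. Alternatives were unmatched replicates, left-out replicates or promoters, a pseudocount of 0.01, other variance models, a minimum size of 0.5 and other baselines and averages.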

Additional observations from a re-analysis of the deposited data

How the results depend on the processing

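The 4 counts of calls stayed within 1.5 times their value under every alternative run. Without the replicate block, 219 control constructs fell (60.7%) and 51 rose (14.1%) against the promoter alone, where 45.3% and 12.6% of all constructs did, 198 differed from the other controls and 97 orientation pairs differed, and 270 of the calls against the promoter alone were shared with the matched fit. Leaving out each replicate in turn gave 257 to 262 lower and 63 to 68 higher constructs, 271 to 284 that differed from the other controls and 139 orientation pairs. With a variance fitted per promoter, chosen after seeing the data, 264 fell and 66 rose. Leaving out each promoter in turn, also chosen after seeing the data, gave 229 to 256 lower and 51 to 66 higher constructs.

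The median difference of -0.53 became -0.29 with the median cCRE construct as the baseline, and the average over promoters of -0.59 became -0.46 with means in place of medians. The average over inserts of -0.41 became -0.56 with medians in place of means and -0.37 without promoter P009. E27-shuffled3 turned from -0.0051 to 0.013 without replicate 1 and 0.016 without replicate 2, was -0.044 without replicate 3, and E46-shuffled3 from 0.099 to -0.22 with the median in place of the mean. Over promoters measured in both orientations, E6-shuffled1 went from -0.52 to -0.36 and RRandom1 from -0.82 to -0.76. E95-shuffled1 went from -0.76 to -0.74 and E95-shuffled2 from -0.53 to -0.47. The cause of these shifts was not tested. Depth could not be weighed, since no barcode numbers were used.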
